A study of Mus musculus with 8 samples.

Results

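The genes described here are 10 transcriptional targets of the tumour suppressor p53: Cdkn1a, Mdm2, Trp53inp1, Ccng1, Bax, Sesn2, Phlda3, Eda2r, Zmat3 and Aen. The list names the genes and uses no measured value, though it was drawn up with earlier results of these data known. All 10 were among the 32285 mouse genes counted by single-cell RNA sequencing in each of 8 libraries. The study placed colon epithelium from 3 settings side by side, each with 2 libraries: epithelium of colon tissue, epithelium of organoids, and epithelium of assembloids. A further pair of libraries holds the stromal cells of assembloids. Colon organoids are cystic or budding epithelial cultures grown in Matrigel from isolated crypts. Assembloids were made by setting such organoids into Matrigel drops with stromal cells that had first been cultured on their own. By the study's methods, the assembloid medium lacked Wnt surrogate, CHIR-99021, R-spondin 1 and noggin, which the full organoid medium contains, and the labels do not give the medium of the organoid libraries. The study's methods name C57BL/6 mice, young adult males, with no transgene or deletion in these groups. The stromal cells came from 2 such mice and were selected as EpCAM-negative cells. The study counts the 2 libraries of each group as biological replicates, and which animals or cultures the epithelial ones came from is not given in the sources used here. Assembloid cells were released with Liberase TL, DNase I and TrypLE, tissue cells with EDTA and TrypLE, and organoid cells with TrypLE alone, so the release and the group cannot be told apart.

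The transcription factor p53 is stabilised when cells sense DNA damage, oncogene activity, nutrient loss or faults in ribosome assembly. It then raises genes that stop the cell cycle, restrain growth signalling or start apoptosis, and it raises its own inhibitor Mdm2, which closes a negative feedback loop. In the intestine, p53 and its targets are best known for the response of crypt cells to radiation. Several of these genes also answer to other factors: Cdkn1a rises as epithelial cells leave the cycle and differentiate, and Sesn2 is also a target of Atf4, the transcription factor of the integrated stress response.

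To show where these genes hold the p53 element near their starts, the 300 bases around each RefSeq transcription start (GRCm38.p6, 250 bases before to 50 after the start) were searched on both strands for its half-site, the 10-base sequence of which p53 binds 2 copies. RefSeq promoters were at hand for 8 of the 10 genes, with 2 starts each for Cdkn1a and Aen and none for Trp53inp1 and Zmat3. An unbroken half-site stood in 6 of these 10 promoters, against 8.36% of 32851 mouse promoters of the same length. A pair of half-sites with intact centres, at most 3 mismatches and at most 3 spacer bases stood in 4 of the 10, against 2.21% of all. The windows of Sesn2, Phlda3 and Eda2r and of the second Cdkn1a start held neither. The Phlda3 window ends in gaacatgt, which matches the beginning of a half-site. The bases that would complete it lie beyond the window and were not searched. The overlapping windows of the 2 Aen starts hold the same pair and count separately. A match is a description of the sequence, and no binding was measured.

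Stretches of 4 genes with a match ahead of their first start are shown, with the pair, or the single half-site where there was no pair, in capitals and the coding strand written 5′ to 3′. The Cdkn1a promoter holds 2 unbroken half-sites, of which 1 is part of the pair and the other lies ahead of it in the same stretch, in lower case. The Cdkn1a pair begins 51 bases before the first of its 2 starts with 1 mismatch and no spacer, and the stretch shown spans chr17:29090898-29090977 on the plus strand. The window of the second start lies downstream of this pair, at chr17:29093519-29093818. The Bax pair begins 201 bases before the start with 2 mismatches and a spacer of 1 base, in a stretch that spans chr7:45467049-45467129 on the minus strand. The single half-sites of Mdm2 and Ccng1 begin 186 and 185 bases before their starts, in stretches that span chr10:117710905-117710974 and chr11:40755432-40755501, both on the minus strand. The best-known p53 elements of Mdm2 lie in its first intron, outside this window.
Cdkn1a: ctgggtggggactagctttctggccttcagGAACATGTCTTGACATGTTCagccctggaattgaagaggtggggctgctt
Bax: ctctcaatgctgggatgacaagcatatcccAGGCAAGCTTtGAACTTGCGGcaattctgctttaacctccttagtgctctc
Mdm2: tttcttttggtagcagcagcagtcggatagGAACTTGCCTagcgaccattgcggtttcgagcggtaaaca
Ccng1: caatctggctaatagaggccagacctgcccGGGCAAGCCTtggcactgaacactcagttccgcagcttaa

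After cells with under 500 genes or over 10% mitochondrial counts, and cells of fibroblast or immune profile in the epithelial libraries, were left out, 4300 to 26312 cells per library remained, with 36926134 to 187583982 unique molecular identifiers (UMIs, each one captured RNA molecule) in all. The tissue libraries kept the smallest shares of their barcodes, 38.6% and 25.3%. Epithelial marker genes were present in all 6 epithelial libraries, and the 8 fibroblast markers summed to 179 and 37.0 CPM (counts scaled to 1000000 UMIs) in assembloid epithelium, against at most 0.0542 in organoid and tissue libraries and 6948 and 11128 in stroma. The cells of fibroblast or immune profile left out numbered 3098 and 851 in the assembloid epithelial libraries, 9 and 10 in tissue and 0 in organoids. Pairs of libraries shared at most 0.98% of the barcodes of either.

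Levels below are CPM, each gene's UMIs scaled to 1000000 UMIs of the same cells. Fold changes come from edgeR's quasi-likelihood test on sums per library, whose TMM scaling also corrects for a few very abundant genes, so they can differ from the ratio of the CPM. A gene is called when its Benjamini-Hochberg adjusted p over all genes tested is below 0.05. With 2 libraries a group, 50.0% of 19205 genes were called between assembloid and tissue epithelium (26.8% higher, 23.2% lower), 47.2% between organoid and tissue epithelium (24.3% higher, 22.9% lower) and 53.3% between organoid and assembloid epithelium (24.5% higher, 28.8% lower). The 3 comparisons share libraries, so their values are set side by side and not counted as separate evidence. Counts of called members have to be read against those shares.

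Of the 10 members, 6 rose and 1 fell in assembloid against tissue epithelium, 6 rose and 1 fell in organoid against tissue epithelium, and 4 rose and 4 fell in organoid against assembloid epithelium. Cdkn1a, Mdm2 and Sesn2 rose in assembloids and were not called in organoids, whereas Aen, Eda2r and Zmat3 rose in organoids and were not called in assembloids. A call in 1 culture and none in the other is not itself a difference between them. Zmat3 was not called between the 2 cultures (log2 fold change 0.39, SE 0.19, adjusted p = 0.12). Phlda3, Bax and Ccng1 rose in both cultures and Trp53inp1 fell in both. The median log2 fold change of the members against tissue was 1.12 in assembloids and 1.07 in organoids, beside 0.03 and 0.06 over all genes.

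**Figure D1:**
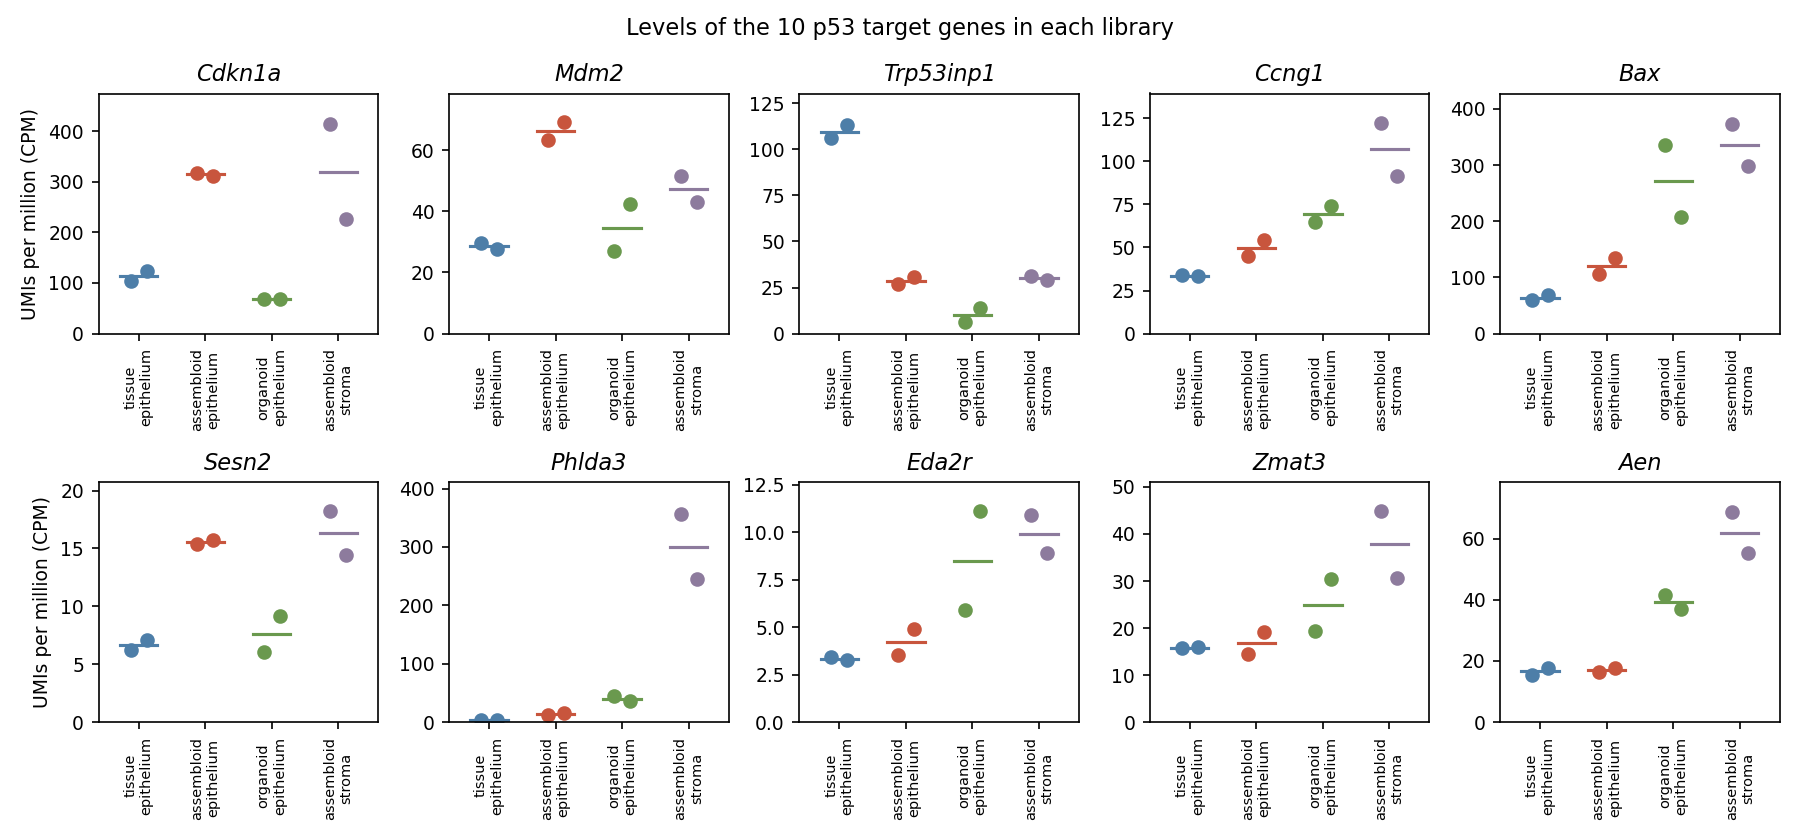
Level of each of the 10 genes (CPM, vertical axis from 0) in every library, with 1 point per library and a bar at the mean of the 2 libraries of a group. Cdkn1a stands at 312 and 318 in assembloid epithelium against 67.7 to 124 in the other epithelial libraries, and Trp53inp1 at 106 and 113 in tissue epithelium against at most 31.1 elsewhere.

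Cdkn1a (chr17:29090976-29100727, plus strand) encodes p21, the inhibitor of cyclin-dependent kinases through which p53 stops the cell cycle. Its level was 318 and 312 CPM in the 2 assembloid epithelial libraries, 105 and 124 in tissue and 69.0 and 67.7 in organoids. The 3 groups did not overlap, and the assembloid libraries were the highest. Cdkn1a was 3.6-fold higher in assembloids than in tissue (log2 fold change 1.85, SE 0.25, adjusted p = 0.00058) and 5.1-fold lower in organoids than in assembloids (log2 fold change -2.35, SE 0.25, adjusted p = 0.00023). Between organoids and tissue the log2 fold change was -0.50 (SE 0.24, adjusted p = 0.12). That difference was not called, and without organoid replicate 1 the log2 fold change was -0.71.

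Mdm2 (chr10:117688875-117710758, minus strand), the ubiquitin ligase that marks p53 for degradation, followed the same order of assembloids above the rest. It stood at 63.4 and 69.3 CPM in assembloids, 29.5 and 27.6 in tissue and 27.0 and 42.5 in organoids. Mdm2 rose 3.03-fold in assembloids against tissue (log2 fold change 1.60, SE 0.20, adjusted p = 0.00039) and was 2.17-fold lower in organoids than in assembloids (log2 fold change -1.12, SE 0.19, adjusted p = 0.0019). One organoid library was below both tissue libraries and the other above both, and the difference from tissue was not called (log2 fold change 0.48, SE 0.19, adjusted p = 0.069). It was called without organoid replicate 1 (0.62, adjusted p = 0.021) and with at most 5% mitochondrial counts (0.51, adjusted p = 0.035).

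Ccng1 (chr11:40748552-40755311, minus strand) encodes cyclin G1, which acts with a phosphatase on Mdm2. Its level was 34.2 and 33.1 CPM in tissue, 45.1 and 54.6 in assembloids and 64.8 and 73.8 in organoids, with no overlap between the groups. Against tissue it rose 1.93-fold in assembloids (log2 fold change 0.94, SE 0.18, adjusted p = 0.0033) and 2.42-fold in organoids (1.27, SE 0.18, adjusted p = 0.00074). The assembloid call was lost without either tissue library, at adjusted p of 0.064 and 0.066 with fold changes of 0.94 and 0.92. Between the 2 cultures the difference was 0.33 (SE 0.18, adjusted p = 0.15), called without organoid replicate 2 (0.43, adjusted p = 0.045).

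Phlda3 and Sesn2 restrain growth signalling. Phlda3 (chr1:135766119-135769136, plus strand) competes with Akt for membrane lipids. It was lowest in tissue, at 2.85 and 3.87 CPM, and reached 12.02 and 15.1 in assembloids and 44.4 and 36.4 in organoids. The groups did not overlap. The rise against tissue was 5.25-fold in assembloids (log2 fold change 2.39, SE 0.27, adjusted p = 0.00027) and 14.4-fold in organoids (3.85, SE 0.29, adjusted p = 3e-05), and organoids exceeded assembloids 2.74-fold (1.45, SE 0.25, adjusted p = 0.0019). Phlda3 stood at 356 and 245 CPM in stroma, and the fibroblast markers at 179 and 37.0 CPM in the 2 assembloid epithelial libraries. The part of stromal RNA in the assembloid values of this and the other members was not tested.

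Sesn2 (chr4:132492032-132510501, minus strand) encodes a leucine-sensing inhibitor of the growth kinase mTORC1. Like Cdkn1a and Mdm2 it was highest in assembloids, at 15.4 and 15.8 CPM against 6.24 and 7.095 in tissue and 6.02 and 9.13 in organoids. It rose 3.05-fold in assembloids against tissue (log2 fold change 1.61, SE 0.21, adjusted p = 0.00053) and was 2.33-fold lower in organoids than in assembloids (-1.22, SE 0.21, adjusted p = 0.0017). Organoids and tissue overlapped, and their difference was 0.39 (SE 0.21, adjusted p = 0.16).

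Bax and Aen act in apoptosis. Bax (chr7:45461697-45466898, minus strand), which opens the outer mitochondrial membrane, stood at 336 and 208 CPM in organoids, 106 and 134 in assembloids and 59.5 and 68.2 in tissue. It rose 5.17-fold in organoids (log2 fold change 2.37, SE 0.34, adjusted p = 0.00077) and 2.44-fold in assembloids (1.29, SE 0.33, adjusted p = 0.012) against tissue, and was 2.11-fold higher in organoids than in assembloids (1.08, SE 0.33, adjusted p = 0.023). The organoid libraries differed widely. Without organoid replicate 1 the difference from assembloids fell to 0.48 (adjusted p = 0.079), and it was not called without assembloid replicate 1 (0.98, adjusted p = 0.10) or with at most 20% mitochondrial counts (1.05, adjusted p = 0.064). The assembloid call against tissue was lost without tissue replicate 1 (adjusted p = 0.12) and without tissue replicate 2 (adjusted p = 0.069).

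Aen (chr7:78895854-78911209, plus strand), a nuclease that promotes apoptosis, was at 41.4 and 36.9 CPM in organoids, 16.5 and 17.8 in assembloids and 15.3 and 17.8 in tissue. Organoids stood above the other 4 libraries, which overlapped. Aen rose 2.81-fold in organoids against tissue (log2 fold change 1.49, SE 0.22, adjusted p = 0.00091) and 2.08-fold against assembloids (adjusted p = 0.0042), while assembloids and tissue differed by 0.43 (SE 0.22, adjusted p = 0.13). Eda2r (chrX:97333840-97377216, minus strand), a receptor of the tumour necrosis factor family for ectodysplasin A2, was a member of low level. Its level was 5.90 and 11.1 CPM in organoids, 3.51 and 4.92 in assembloids and 3.41 and 3.25 in tissue. It rose 2.91-fold in organoids against tissue (1.54, SE 0.28, adjusted p = 0.0024). Assembloids differed from tissue by 0.71 (SE 0.28, adjusted p = 0.060), and this was called in DESeq2 (adjusted p = 0.043), with no filter on low counts (0.046), without assembloid replicate 1 or either organoid library (0.045 to 0.046) and with fibroblast- and immune-gated cells kept (0.036). In the other settings its adjusted p ran from 0.060 to 0.235. The call against assembloids (0.83, SE 0.27, adjusted p = 0.030) was lost without any one of 4 libraries, at adjusted p from 0.052 to 0.14, and with at most 5% mitochondrial counts (0.059).

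Zmat3 and Trp53inp1 complete the set. Zmat3 (chr3:32334792-32366014, minus strand), a zinc finger protein that binds RNA, was at 15.7 and 15.9 CPM in tissue, 14.5 and 19.2 in assembloids and 19.3 and 30.5 in organoids. It rose 1.82-fold in organoids against tissue (log2 fold change 0.86, SE 0.19, adjusted p = 0.0071), a call lost without either tissue library (adjusted p = 0.083 and 0.068). Its differences were 0.47 (SE 0.19, adjusted p = 0.074) for assembloids against tissue, called without either organoid library (0.047 and 0.040) and with at most 20% mitochondrial counts (0.049), and 0.39 (SE 0.19, adjusted p = 0.12) for organoids against assembloids, called with at most 5% mitochondrial counts (0.043). Trp53inp1 (chr4:11156431-11174379, plus strand), a stress-induced nuclear protein that modulates p53 and autophagy, was the member that fell in both cultures. Tissue held 106 and 113 CPM, assembloids 26.9 and 30.5 and organoids 6.22 and 13.8, with no overlap. The fall against tissue was 2.93-fold in assembloids (log2 fold change -1.55, SE 0.27, adjusted p = 0.0020) and 9.7-fold in organoids (-3.28, SE 0.29, adjusted p = 6.5e-05), and organoids were 3.31-fold below assembloids (-1.73, SE 0.27, adjusted p = 0.0012).

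**Figure D2:**
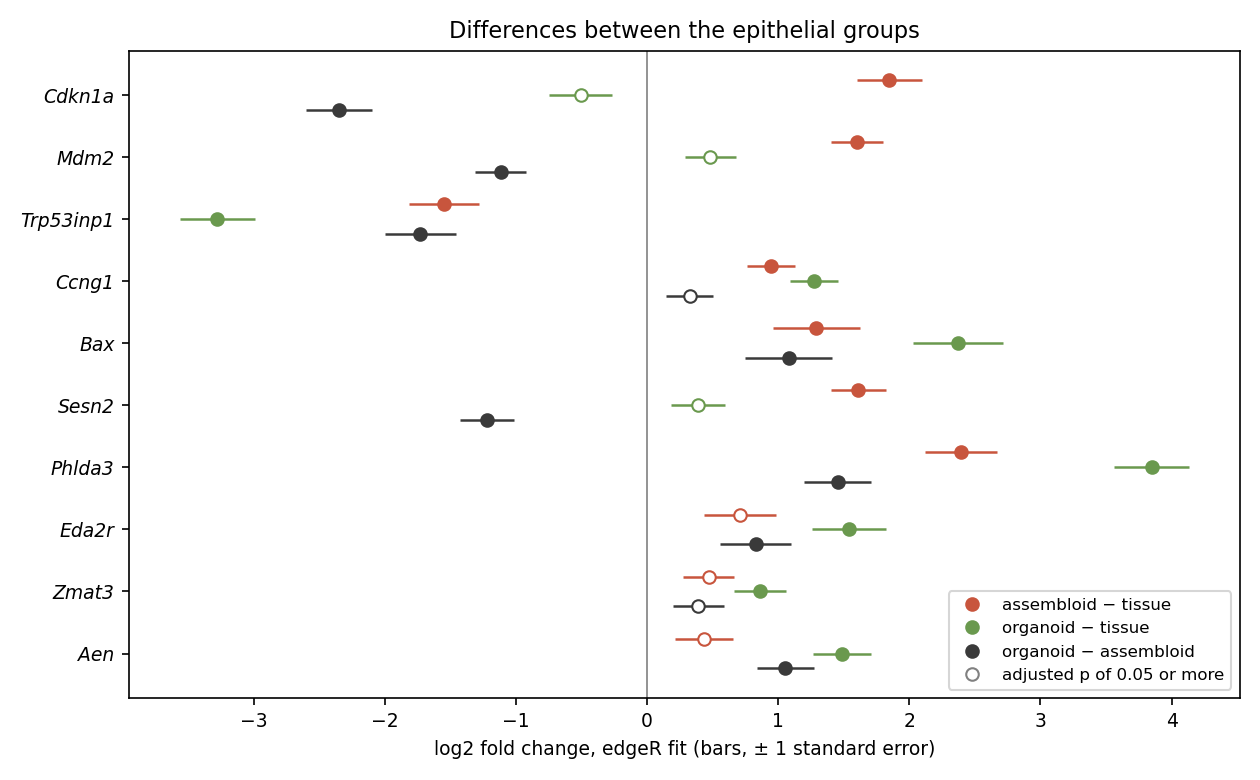
Log2 fold change of each gene (horizontal axis, edgeR fit on sums per library) between the epithelial groups, with bars of 1 standard error and open points where the adjusted p is 0.05 or more. Cdkn1a, Mdm2 and Sesn2 are right of 0 for assembloids against tissue (1.60 to 1.85) and left of 0 for organoids against assembloids (-1.12 to -2.35), whereas Phlda3, Bax, Aen and Eda2r lie right of 0 for organoids in both comparisons.

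The regulators of p53 did not all move with the targets. Trp53 itself stood at 21.7 and 27.5 CPM in assembloid epithelium, 31.0 and 28.2 in tissue and 131 and 96.9 in organoids. Its mRNA was 4.62-fold higher in organoids than in tissue (log2 fold change 2.21, SE 0.27, adjusted p = 0.00035) and 4.28-fold higher than in assembloids (2.10, SE 0.27, adjusted p = 0.00050), and it was not called between assembloids and tissue (0.11, SE 0.26, adjusted p = 0.74). The mRNA does not report the amount or activity of the p53 protein, which is set mostly by its stability. Mdm4, the partner of Mdm2 in restraining p53, was not called in any of the 3 comparisons (0.13 to 0.32). Trp63, a p53 relative of squamous epithelium, fell under the filter on low counts. Of 15 regulators tested, 2 rose and 2 fell in assembloids against tissue, 8 rose and 1 fell in organoids against tissue, and 7 rose and 3 fell in organoids against assembloids. Their medians were 0.14, 0.54 and 0.47. These are values of whole libraries, and those within cycling and non-cycling cells are given further below. The damage kinases Chek2 (28.9 and 36.6 CPM in organoids, 10.6 and 10.6 in assembloids) and Atm (26.2 and 36.3 against 16.2 and 12.4) were among those higher in organoids than in assembloids, with fold changes of 1.46 (SE 0.19, adjusted p = 0.00049) and 0.93 (SE 0.23, adjusted p = 0.0098). Tissue held 35.4 and 29.8 CPM of Atm, and assembloids were below tissue as well (log2 fold change -0.78, SE 0.23, adjusted p = 0.023).

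A list of 43 other p53 targets was counted in the same way. In assembloids against tissue 25 rose, 5 fell and 13 were not called, with a median log2 fold change of 1.06. Organoids against tissue gave 15 higher, 10 lower and 18 not called (median 0.50), and organoids against assembloids 10 higher, 20 lower and 13 not called (median -0.52). Trp53cor1, the long noncoding RNA beside Cdkn1a, had the largest rise among the abundant listed genes. It was at 261 and 99.1 CPM in assembloids and 1.04 and 0.785 in tissue (log2 fold change 8.05, SE 0.63, adjusted p = 4.6e-05), with 2.04 and 3.66 in organoids. Organoids were also below assembloids in Gadd45a (7.53 and 8.56 against 109 and 150 CPM), which acts in growth arrest, in Pmaip1 (9.84 and 11.9 against 102 and 100.2), which encodes the pro-apoptotic Noxa, and in the secreted stress factor Gdf15 (22.4 and 24.8 against 155 and 207). Those 3 fell by 4.15, 3.38 and 3.08 on the log2 scale, with adjusted p of 4.6e-05, 3.8e-05 and 7.6e-05. Others went down in assembloids against tissue: Btg2, an antiproliferative gene (log2 fold change -1.48, SE 0.21, adjusted p = 0.00084), Sesn1, a relative of Sesn2 (-1.08, SE 0.23, adjusted p = 0.0051), and Fbxw7, which targets cyclin E for degradation (-0.74, SE 0.23, adjusted p = 0.026). In organoids against tissue the lowest of the abundant ones were Btg2 (-3.62, SE 0.23, adjusted p = 1.5e-05), the kinase Plk3 (-2.86, SE 0.21, adjusted p = 2.6e-05) and Gadd45a (-1.79, SE 0.27, adjusted p = 0.00090).

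Genes of other stress programmes moved with the groups and are given beside these counts. Of 9 genes of the integrated stress response, through which Atf4 raises amino acid synthesis, 8 rose in assembloids against tissue (median 3.28) and 7 rose and 1 fell in organoids against tissue (median 3.41). Among them Psat1, of serine synthesis, was at 3.75 and 3.71 CPM in tissue, 64.7 and 62.7 in assembloids and 124 and 148 in organoids, and Phgdh of the same pathway at 6.68 and 11.4, 66.9 and 95.3, and 173 and 141. Slc7a11, the cystine transporter, rose by 3.28 on the log2 scale in assembloids (SE 0.29, adjusted p = 8.3e-05), and Mthfd2 and Asns rose by 3.41 and 2.59 in organoids. Atf3 fell in organoids (-2.83, SE 0.26, adjusted p = 7.7e-05). The 10 immediate early genes, which many stimuli raise within minutes, summed to 3191 and 3752 CPM in tissue, 1289 and 1698 in assembloids and 478 and 431 in organoids. None of them rose in either culture against tissue, with 6 lower in assembloids and 10 in organoids. The goblet cell markers summed to 16508 and 18250 CPM in tissue, 1266 and 2330 in assembloids and 125 and 227 in organoids, and the cycling markers to 472 and 357, 1017 and 749, and 2089 and 1817. The part of these programmes and cell types in the differences of the whole libraries was not tested, and in such sums fewer cells of a type and less RNA per cell cannot be told apart.

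**Figure D3:**
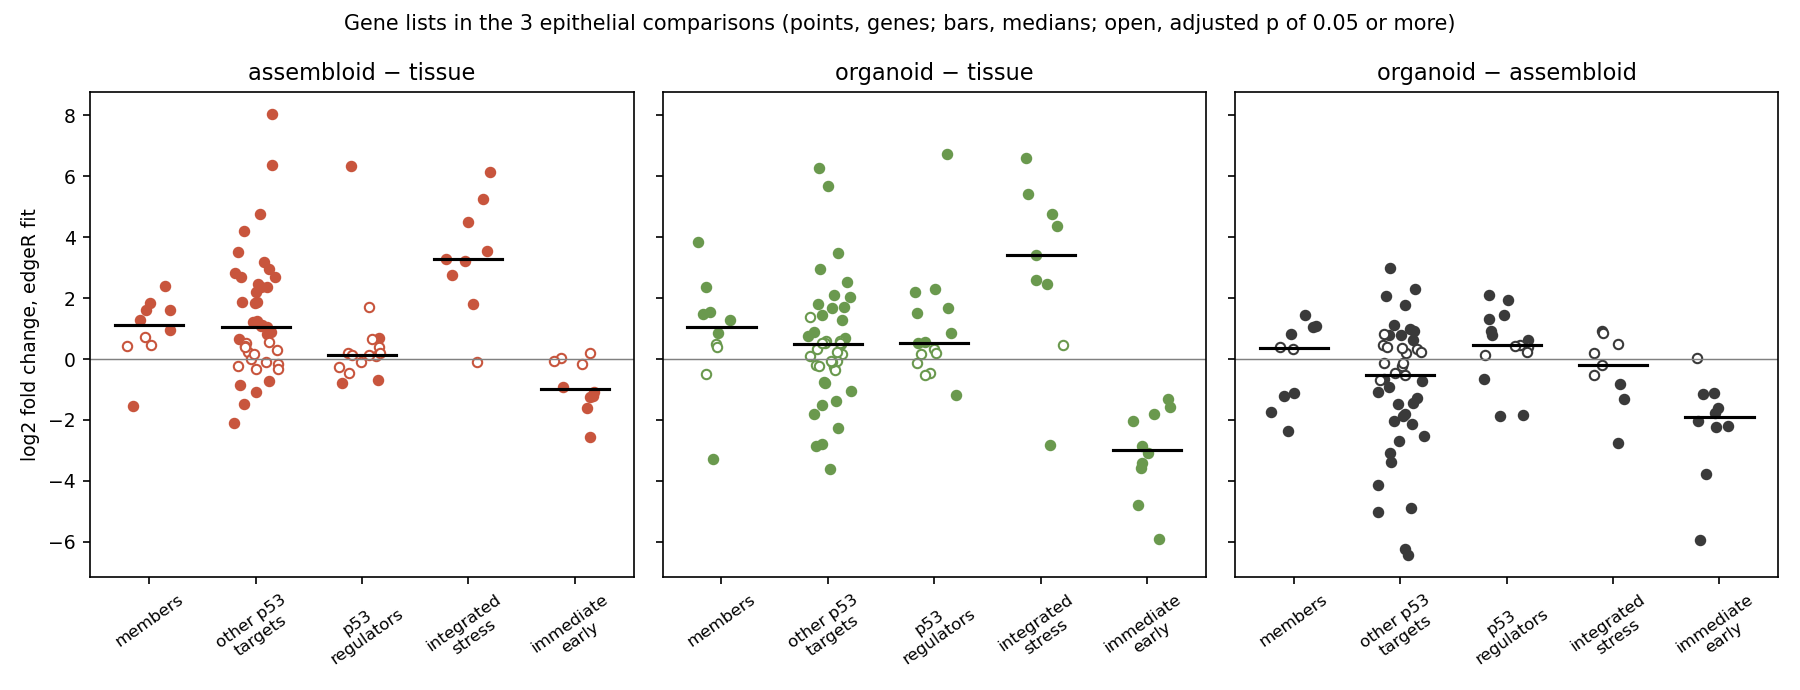
Log2 fold change (vertical axis, edgeR fit) of every tested gene of 5 lists in each comparison between epithelial groups, with 1 point per gene, open where the adjusted p is 0.05 or more, and a bar at the median of each list. The 43 other p53 targets have medians of 1.06, 0.50 and -0.52 from left to right and spread on both sides of 0 in each panel.

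The share of cells in which a gene was seen gives every cell the same weight, whatever its depth. Each cell was thinned to 2000 UMIs, and cells with fewer were left out, which kept 2435 to 20237 cells per library. No class in these libraries is known to lack these genes, so a background share could not be set. Cdkn1a was seen in 43.7% and 38.1% of assembloid epithelial cells, 15.7% and 18.3% of tissue cells and 10.4% and 10.0% of organoid cells, with exact binomial 95% intervals that cover counting error only and did not overlap between groups. Trp53inp1 was seen in 16.7% and 19.1% of tissue cells, 5.34% and 6.07% of assembloid cells and 1.36% and 2.82% of organoid cells. Bax was seen in 44.6% and 28.4% of organoid cells, 17.9% and 20.3% of assembloid cells and 10.3% and 12.2% of tissue cells. At least 2 different members were found in 24.8% and 26.1% of assembloid cells, 23.02% and 18.5% of organoid cells and 11.8% and 14.8% of tissue cells. Shares without thinning also take in the cells with under 2000 UMIs, so they differ in the cells as well. For Cdkn1a they were 63.0% and 74.4% in assembloids, 28.3% and 32.9% in tissue, and 55.0% and 25.4% in organoids, where the deeper library had the larger share.

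**Figure D4:**
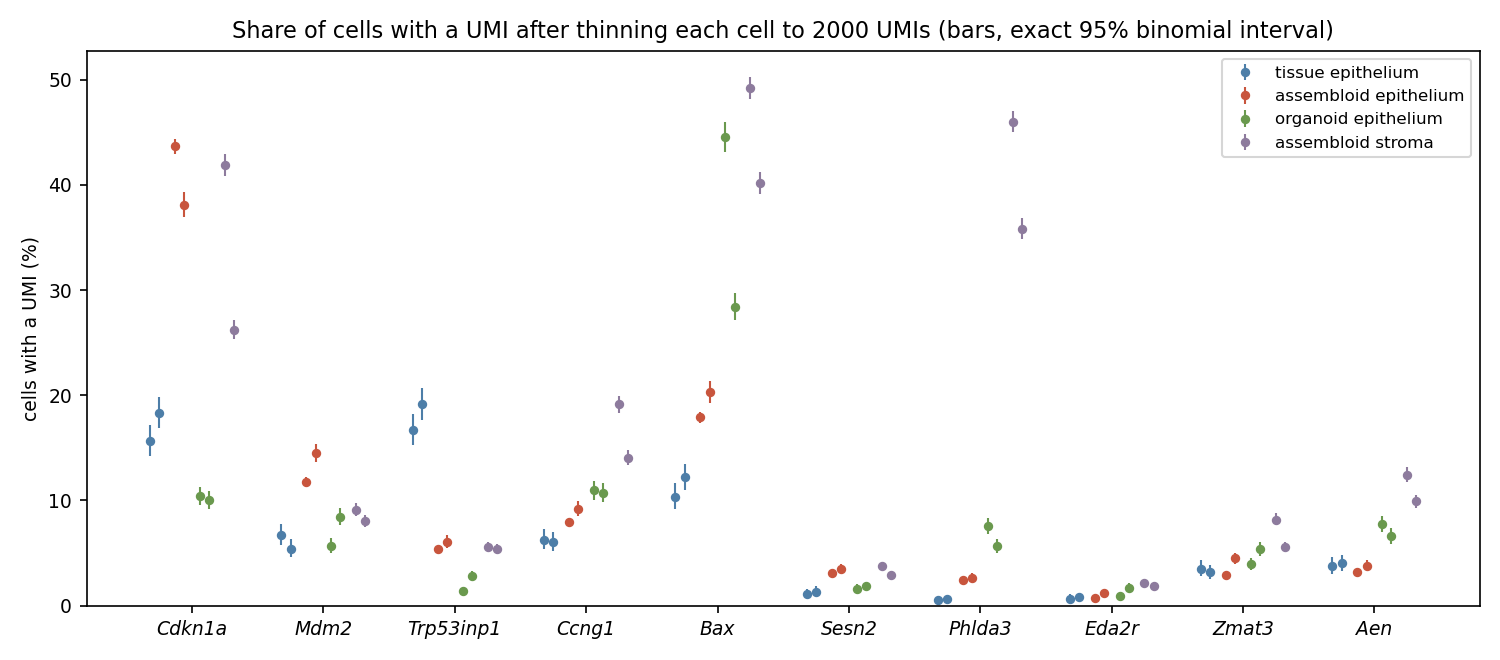
Share of cells with at least 1 UMI of each gene (vertical axis, percent) after each cell was thinned to 2000 UMIs, with 1 point per library and bars for the exact 95% binomial interval. The 2 assembloid epithelial libraries stand at 43.7% and 38.1% for Cdkn1a, and the stromal libraries lead for Phlda3 at 46.0% and 35.8%.

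To ask whether these differences were present within one kind of cell, cells were gated on sums of marker genes after thinning: cycling, colonocyte, goblet or enteroendocrine markers, with "ungated" for cells that reached none and had no cycling UMI. A gate takes a range of a continuous sum and not a cell type. Between 180 and 7034 cells per epithelial library lay within 1 UMI of the cycling minimum and, in tissue and assembloids, 103 to 533 within 1 UMI of the colonocyte minimum (2 and 3 in organoids). Tissue cells of the cycling gate carried a median of 3 and 4 thinned goblet UMIs, against 1 and 1 in assembloids and 0 and 0 in organoids, and those of the colonocyte gate 2 and 3, against 0 and 0 in assembloids. The part of these UMIs in the results within gates was not tested. Organoids had too few colonocyte- and goblet-gated cells for a sum.

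In cells with at least 3 cycling UMIs, whatever their other markers (5700 and 1151 cells of assembloids, 2568 and 2303 of organoids, 227 and 188 of tissue), assembloids and tissue differed in 40.2% of 16932 genes. Of the members 6 rose and 1 fell, where 22.2% of all genes rose and 18.0% fell. Cdkn1a was at 258 and 240 CPM in cycling assembloid cells against 36.3 and 55.9 in cycling tissue cells, a 7.68-fold difference (log2 fold change 2.94, SE 0.32, adjusted p = 1.7e-05). Mdm2 rose 3.92-fold (77.5 and 116 against 34.5 and 33.5 CPM, adjusted p = 5.2e-05), Phlda3 4.79-fold (adjusted p = 0.00030), Sesn2 3.34-fold (adjusted p = 0.00065), Ccng1 2.68-fold (adjusted p = 0.00066) and Bax 2.67-fold (adjusted p = 0.0055, lost without either tissue library at 0.083 and 0.076). Trp53inp1 fell 2.95-fold (21.8 and 27.8 against 92.1 and 111 CPM, adjusted p = 0.00038). In the 172 and 90 cycling-gated tissue cells that reached no other list it was at 51.1 and 46.1 CPM. In cycling organoid cells against cycling tissue cells, where 32.2% of genes were called (17.0% higher, 15.3% lower), Phlda3, Bax, Ccng1 and Aen rose and Trp53inp1 fell 12.8-fold (4.37 and 7.96 against 92.1 and 111 CPM, adjusted p = 7.6e-07). Of 15 p53 regulators tested in the same comparison, 4 rose and 1 fell, with a median of 0.28. Trp53 was 3.04-fold higher there (log2 fold change 1.61, SE 0.28, adjusted p = 0.00091). Cdkn1a was at 59.2 and 52.7 CPM in those organoid cells and was not called (0.72, SE 0.30, adjusted p = 0.086), though it was without organoid replicate 2 (0.99, adjusted p = 0.025) and with no filter on low counts (0.80, adjusted p = 0.038). The Aen call (1.01, adjusted p = 0.010) was lost without any one of 3 libraries, at adjusted p from 0.055 to 0.096.

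In cells without a cycling UMI, the calls took in 49.1% of 16306 genes for assembloids against tissue (25.8% higher, 23.3% lower) and 45.7% for organoids against tissue (23.2% higher, 22.5% lower). There 7 members rose and 1 fell in each comparison. Cdkn1a was 381 and 352 CPM in non-cycling assembloid cells and 125 and 140 in non-cycling tissue cells (log2 fold change 1.98, SE 0.22, adjusted p = 0.00016), with 114 and 120 in organoids (-0.12, SE 0.22, adjusted p = 0.68). Trp53 was 4.5-fold higher in non-cycling organoid cells than in tissue (adjusted p = 0.00026). Of 14 p53 regulators tested there, 5 rose and 1 fell (median 0.31). Phlda3 was 22.7-fold higher in non-cycling organoid cells than in tissue (56.4 and 58.2 against 2.39 and 2.90 CPM, adjusted p = 3.7e-06) and Eda2r 5.6-fold (8.83 and 15.8 against 2.42 and 2.06, adjusted p = 0.00023). Eda2r in assembloids (0.92, adjusted p = 0.028) was not called without either tissue library or assembloid replicate 2 (adjusted p from 0.057 to 0.17). The assembloid rise of Ccng1 (0.93, SE 0.19, adjusted p = 0.0034) was lost without either tissue library (0.062 and 0.064), and that of Bax (1.38, SE 0.28, adjusted p = 0.0034) without tissue replicate 1 (0.053). The Sesn2 call in organoids (0.64, adjusted p = 0.043) was lost in 6 of 10 settings, among them the fit with a replicate block (adjusted p = 0.059). One of the 10, the stricter gate, holds the same non-cycling cells and could not change it.

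Colonocyte-gated cells could be compared between assembloids (891 and 548 cells) and tissue (565 and 650 cells), with 54.2% of 12517 genes called (28.2% higher, 26.0% lower). Eda2r was under the filter, and of the other 9 members 7 rose and 0 fell. Cdkn1a stood at 636 and 552 CPM against 266 and 265 (log2 fold change 1.70, SE 0.18, adjusted p = 7.5e-05), Mdm2 at 35.5 and 38.9 against 24.6 and 22.6 (1.19, SE 0.16, adjusted p = 0.00025) and Sesn2 at 11.2 and 12.9 against 4.21 and 6.34 (1.73, SE 0.25, adjusted p = 0.00045). Trp53inp1 was alike in level, at 37.1 and 31.5 against 41.1 and 34.3, with a fold change of 0.40 after scaling (SE 0.19, adjusted p = 0.095) that was called with a replicate block (adjusted p = 0.037) and without assembloid replicate 2 (0.024). Ccng1 (0.69, adjusted p = 0.0039) was lost without tissue replicate 1 (0.054). Aen (0.95, adjusted p = 0.028) was lost without tissue replicate 1 (0.22), without assembloid replicate 1 (0.075), in DESeq2 (0.15) and with a stricter gate (0.19).

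**Figure D5:**
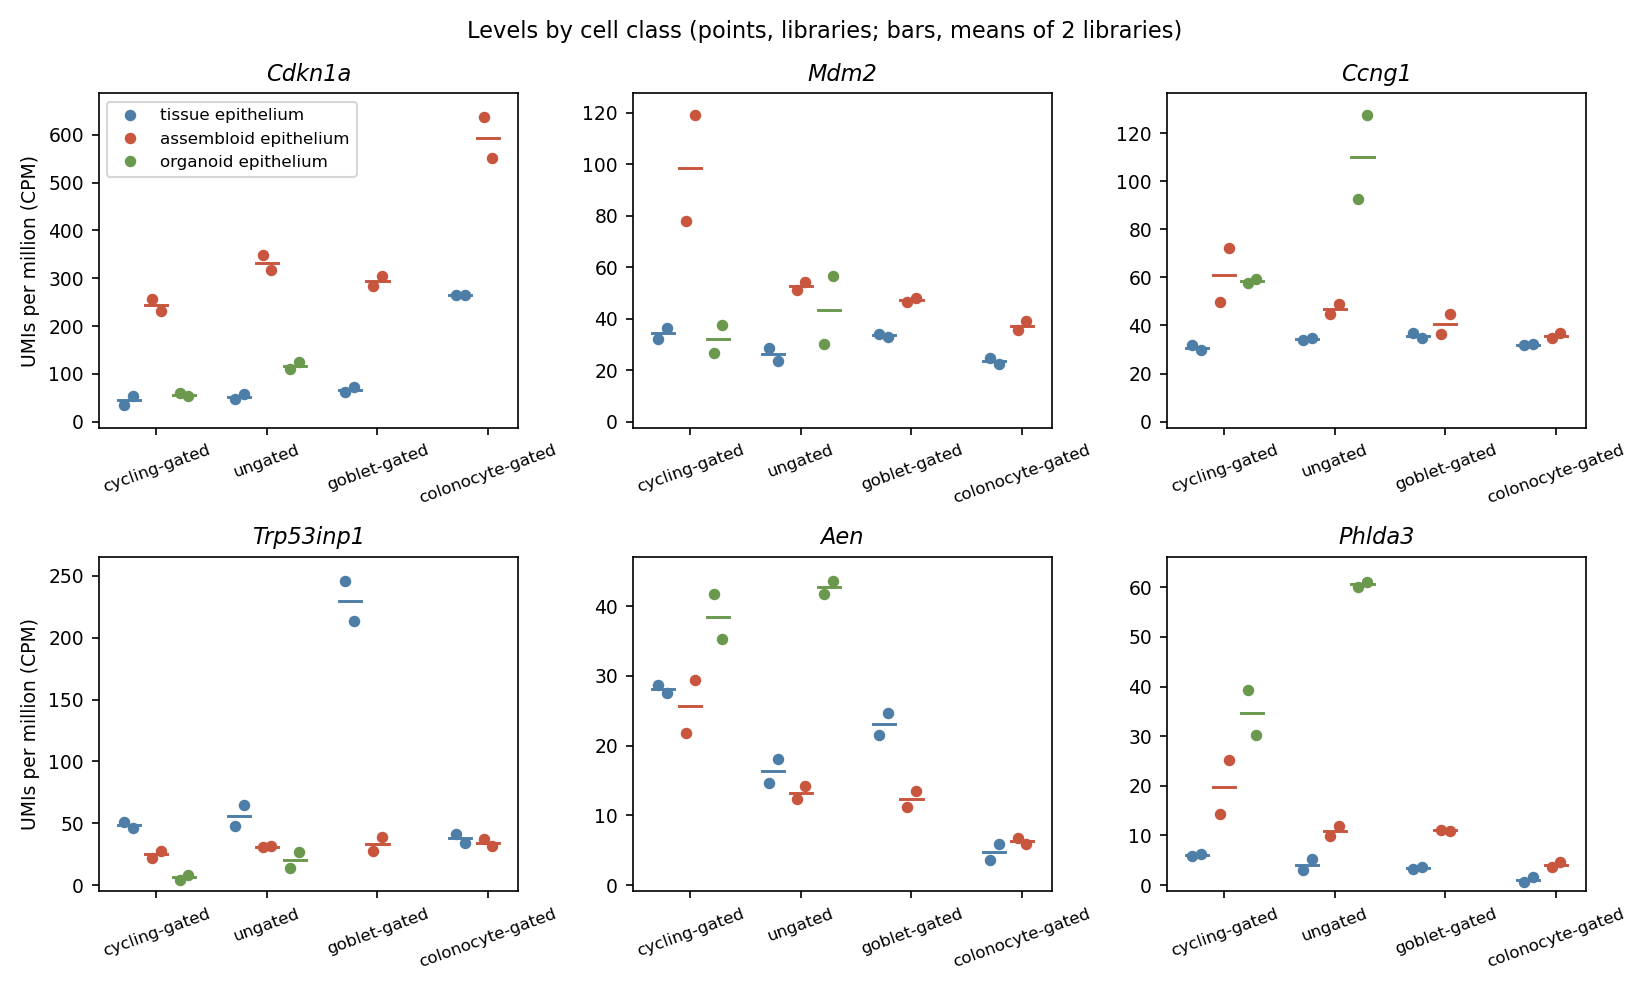
Level of 6 genes (CPM, vertical axis) by gated class in each epithelial library, with 1 point per library and a bar at the mean of the 2 libraries. Organoids are drawn for cycling-gated and ungated cells only. Enteroendocrine-gated cells are not drawn. Among the classes drawn, Cdkn1a is highest in colonocyte-gated cells of both tissue (266 and 265) and assembloids (636 and 552), and Trp53inp1 in goblet-gated cells of tissue (245 and 214).

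The members also differed between the classes of one library. Cdkn1a was the only member called higher in colonocyte- than in cycling-gated cells. With the library as a block and 52.6% of 16897 genes called (24.7% higher, 27.9% lower), it was 6.02-fold higher in colonocyte-gated than in cycling-gated cells (log2 fold change 2.59, SE 0.33, adjusted p = 8.9e-07), higher in 4 of 4 libraries, and 3.56-fold higher than in goblet-gated cells (1.83, SE 0.35, adjusted p = 0.00024, with 38.6% of genes called, 20.5% higher and 18.1% lower). The latter call was lost without the library as a block (adjusted p = 0.32). Tissue cycling-gated cells held 34.0 and 54.4 CPM and tissue colonocyte-gated cells 266 and 265. In the thinned cells, 4.65% and 10.0% of the former and 40.2% and 38.3% of the latter had a Cdkn1a UMI. Trp53 was 2.4-fold lower in colonocyte- than in cycling-gated cells (-1.28, SE 0.14, adjusted p = 1.5e-07). Of 15 p53 regulators tested in that contrast 1 rose and 10 fell, with a median of -1.02, beside 24.7% and 27.9% of all genes.

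Phlda3, Eda2r and Aen were called the other way, lower in colonocyte- than in cycling-gated cells. Their CPM were lower in 4 of 4 libraries, as were those of Mdm2, Bax, Sesn2 and Zmat3, whose fitted differences after scaling were -0.32, -0.03, 0.04 and -0.01 and were not called. Against cycling-gated cells Aen fell 3.12-fold (log2 fold change -1.64, SE 0.24, adjusted p = 4.1e-06), Phlda3 2.9-fold (-1.54, SE 0.27, adjusted p = 4.3e-05) and Eda2r 6.12-fold (-2.61, SE 0.54, adjusted p = 0.00031). The colonocyte-gated Eda2r values rest on 3 and 9 UMIs in tissue and 6 and 8 in assembloids, and those of Phlda3 in tissue on 6 and 17. In tissue, Aen was at 28.7 and 27.5 CPM in cycling-gated and 3.58 and 5.86 in colonocyte-gated cells, and in assembloids at 21.8 and 29.4 and at 6.69 and 5.87. The 3 genes were also below goblet-gated cells (Aen -1.41, Phlda3 -1.25, Eda2r -2.28), though without the library as a block only Aen was called (Phlda3 -1.18, adjusted p = 0.51, Eda2r -2.17, adjusted p = 0.059). Between cycling-gated and ungated cells, 19.6% of 16897 genes were called (9.14% higher, 10.4% lower) and 0 of the 10 members, both in edgeR and in DESeq2, with 3 members at an unadjusted p under 0.05. One of those 3 was Cdkn1a, which was lower in cycling-gated cells in 6 of 6 libraries (-0.76, SE 0.28, adjusted p = 0.064). It was called with a stricter gate (-1.07, adjusted p = 0.0012) and without tissue replicate 1 (-0.75, adjusted p = 0.0125). Leaving out assembloid replicate 1 brought a call of Trp53inp1, and leaving out assembloid replicate 2 one of Ccng1.

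Trp53inp1 was highest in the secretory cells of tissue. Tissue goblet-gated cells held 245 and 214 CPM and enteroendocrine-gated cells 399.8 and 494 (41 and 71 cells), against 41.1 and 34.3 in colonocyte-gated and 51.1 and 46.1 in cycling-gated cells. In assembloids the goblet-gated cells held 27.4 and 38.9 CPM and the enteroendocrine-gated cells 48.3 and 91.8 (38 and 36 cells), so that the assembloid libraries were lower within the goblet gate as well. Over both groups the gene was lower in colonocyte- than in goblet-gated cells (log2 fold change -1.12, SE 0.41, adjusted p = 0.035), in 3 of 4 libraries, and this call was lost without tissue replicate 1 (-0.63, adjusted p = 0.33) or 2 (-0.71, adjusted p = 0.26), in DESeq2 (adjusted p = 0.051) and without the library as a block (0.22).

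Whether the step between classes differed between groups was tested as an interaction. For colonocyte- against cycling-gated cells in assembloids against tissue, 16.2% of 18244 genes were called (7.30% higher, 8.89% lower), with a median over all genes of -0.15 that DESeq2's scaling moved by 0.15. The difference was negative for Cdkn1a (-1.45, SE 0.28, adjusted p = 0.00099), Mdm2 (-0.94, SE 0.22, adjusted p = 0.0055) and Ccng1 (-0.85, SE 0.22, adjusted p = 0.012) and positive for Trp53inp1 (0.81, SE 0.25, adjusted p = 0.032). The ratio of assembloids to tissue for Cdkn1a, Mdm2 and Ccng1 was thus larger in cycling- than in colonocyte-gated cells. This holds for ratios and was not tested for differences in CPM. In levels, Mdm2 went from 77.8 and 119 CPM in cycling-gated to 35.5 and 38.9 in colonocyte-gated assembloid cells, and from 32.1 and 36.5 to 24.6 and 22.6 in tissue. Only the Cdkn1a call held in each fit that left out 1 library. Without tissue replicate 1, Mdm2, Ccng1 and Trp53inp1 had adjusted p of 0.14, 0.086 and 0.21. Without tissue replicate 2, Ccng1 and Trp53inp1 had 0.12 and 0.078, and Trp53inp1 was also lost without assembloid replicate 1 (0.19) or organoid replicate 2 (0.088). Without the library as a block none of the 4 was called (0.069 for Cdkn1a).

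For cycling-gated against ungated cells in organoids against tissue, 7.23% of 18244 genes were called (4.93% higher, 2.30% lower). Trp53inp1 (-1.16, SE 0.26, adjusted p = 0.0068) and Eda2r (-2.35, SE 0.56, adjusted p = 0.011) were among them. In levels, Eda2r was 4.87 and 8.77 CPM in cycling-gated and 9.04 and 15.4 in ungated organoid cells, against 10.9 and 7.58 and 3.28 and 1.77 in tissue. Of all calls 68.2% were higher here and 45.6% in DESeq2, whose scaling moved the median over all genes by -0.22. Without tissue replicate 1 neither gene was called (adjusted p = 0.25 and 0.13), without organoid replicate 2 the values were 0.053 and 0.064, and Eda2r was also lost without organoid replicate 1 (0.089) or tissue replicate 2 (0.054). Neither gene was called without the library as a block (0.52 and 0.33).

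Among organoid cells, the 8.50% and 10.99% with an Areg UMI, an epidermal growth factor family ligand, held 170 and 134 CPM of Cdkn1a against 59.7 and 61.0 in the rest. All 10 members were higher in the cells with an Areg UMI in both organoid libraries, Phlda3 for example at 72.5 and 50.2 against 41.8 and 35.5 CPM. For Cdkn1a the same split gave 364 and 360 against 269 and 261 in assembloids, and 170 and 200.4 against 97.7 and 110 in tissue. Most other members went the other way in tissue, where 7 of the 10 were lower in cells with an Areg UMI in both libraries, Trp53inp1 for example at 76.9 and 86.6 CPM against 115 and 123 and Aen at 12.4 and 12.4 against 16.2 and 19.4. In assembloids Bax and Aen were lower in these cells in both libraries. Areg was chosen with values of these libraries known, and no test was made. The share of all genes that were higher or lower in cells with an Areg UMI was not counted. The counts of members therefore have no background and cannot be read as particular to them.

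The stromal libraries were counted with another software version than the epithelial ones and are set beside them without a test. Cdkn1a stood at 414 and 226 CPM, Bax at 373 and 299, Phlda3 at 356 and 245, Ccng1 at 122 and 91.6, Aen at 68.7 and 55.2, Zmat3 at 44.9 and 30.6 and Sesn2 at 18.2 and 14.4. Replicate 1 was the higher for all 10 members, and the share of all genes higher in it was not counted. Basal squamous-gated cells made up 9.05% of the thinned cells in replicate 1 and 0.399% in replicate 2. The part of this difference in the levels of the members was not tested. At least 2 members were found in 59.8% and 42.9% of thinned stromal cells. Phlda3 was above all 6 epithelial libraries, of which the highest held 44.4, whereas Mdm2 at 51.7 and 43.0 was below assembloid epithelium and Trp53inp1 at 31.1 and 28.8 was beside it at 26.9 and 30.5.

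Within stroma, 1 to 2 members were called between gated classes. Cycling fibroblasts (1840 and 1386 cells) against non-cycling ones (3477 and 5359 cells) gave 22.1% of 14615 genes called (8.57% higher, 13.5% lower), so that 38.8% of calls were higher (56.0% in DESeq2). Trp53inp1 was the member called, at 21.97 and 19.2 CPM against 40.1 and 35.1 (log2 fold change -1.05, SE 0.17, adjusted p = 0.0012). Cdkn1a was 433 and 233 against 439.7 and 225 (-0.17, SE 0.25, adjusted p = 0.65), a difference within its error. Telocyte-gated fibroblasts (44 and 43 cells), named for markers of the Bmp-producing cells under the crypt mouth, were compared with trophocyte-gated fibroblasts (561 and 1255 cells), named for those of the cells that feed the crypt base. These gates start at only 3 and 4 UMIs. Of the thinned stromal cells, 526 and 463 lay within 1 UMI of the telocyte minimum and 1563 and 2095 within 1 UMI of the trophocyte minimum. Of 10150 genes 6.52% were called (3.45% higher, 3.07% lower), so that 52.9% of calls were higher (66.8% in DESeq2). Cdkn1a was 320.4 and 105 CPM against 579 and 294 (-1.18, SE 0.31, adjusted p = 0.040) and Trp53inp1 23.95 and 19.8 against 59.0 and 45.6 (-1.34, SE 0.33, adjusted p = 0.026), and neither was called in DESeq2 (0.11 and 0.089), nor was Cdkn1a without the library as a block (0.25). Glia-gated cells (47 and 38 cells, from a gate of only 2 UMIs) against non-cycling fibroblasts gave 16.3% of genes called (8.09% higher, 8.18% lower), with 49.8% of calls higher (63.4% in DESeq2, which moved the median over all genes by 0.22). The markers of this gate summed to 803 and 537 CPM in assembloid epithelium and to 13.2 and 13.4 in stroma, so they are not particular to glia here. The part of epithelial RNA in the gated cells was not tested. Sesn2 was called lower (adjusted p = 0.041) on 1 UMI in each glia-gated sum, against 1025 and 1099 UMIs (19.95 and 15.5 CPM) in the fibroblasts. No fold is given for so few UMIs, and the call was lost in DESeq2 (0.063) and with a stricter gate (0.097). Neuron-gated cells held 897 and 518 CPM of Cdkn1a (55 and 85 cells), basal squamous-gated cells 283 and 345 (812 and 36 cells), and the 67 endothelial-gated cells of replicate 2 held 70.6.

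Across the 27 epithelial sums per library and class, without stroma and with the cells gated on crypt-base markers in organoids and 1 tissue library, the 10 members did not form one pattern. Pearson's r on log2 CPM was positive for 33 of 45 pairs, highest for Bax with Phlda3 (0.917), Eda2r with Aen (0.805) and Ccng1 with Phlda3 (0.789), and lowest for Cdkn1a with Aen (-0.719) and Trp53inp1 with Bax (-0.626). Of 4239 abundant genes, those most like Cdkn1a were 1810037I17Rik (r of 0.928), Rab11a (0.927) and Capn5 (0.917). The highest means of a gene's correlations with each of the 10 members were 0.465 (Pibf1), 0.463 (Tbc1d1) and 0.455 (Fxr1). Such a mean cannot be compared with the r to Cdkn1a alone, since some members correlate negatively with one another. The sums share libraries and differ in depth, so these values are descriptions.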

How the data were processed

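Single-cell RNA was captured from the 3′ end of transcripts (10x 3′ v3), so 1 UMI marks 1 captured molecule. The deposited matrices hold counts, whole UMIs per gene and cell, that the authors made with Cell Ranger (version 6 and mm10 in the submitters' processing notes). The file headers give 6.0.1 for the stromal and 7.1.0 for the epithelial libraries, and whether introns were counted is not given in the sources used here. Gene IDs matched GENCODE M21 for 99.61% of rows and for all members. Total UMIs were 99133978 to 191255856 per library.

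Cells had to show 500 genes or more and no more than 10% of counts from mitochondria, the study's own limits for stroma, and doublets were not removed. Cells of fibroblast or immune profile were left out of epithelial libraries. Cells with at least 2000 UMIs were thinned to 2000 and gated on marker sums of at least 2 genes, with minimums of 3 UMIs for cycling, 12 for colonocyte, 20 for goblet and 8 for enteroendocrine markers, set from the marker distributions. Epithelial cells with 1 or 2 cycling UMIs were left out of class sums unless they reached another marker list, such as that of colonocytes. They were also left out of the split into cycling and non-cycling cells, as were such fibroblasts. A class needed 30 cells in a library. Counts were summed per library or per library and class and tested in edgeR 4.0.16 (quasi-likelihood, TMM, its low-count filter, R 4.3.3) over all genes with Benjamini-Hochberg adjustment, with the 6 epithelial libraries in one fit. Class contrasts had the library as a block. Stroma was fitted alone. The alternatives were DESeq2 1.42.0, no filter on low counts, a replicate block or none, each library left out, other limits on mitochondrial counts, genes and UMIs, stricter gates and all cells kept. The fits were also run on simulated counts in which few genes changed. Many genes differ in these data, so the simulation cannot speak for these comparisons and nothing is drawn from it. Members and lists were chosen with earlier results of these data known. Genes named beyond the members were the 4 highest and the 4 lowest called genes (mean log2 CPM of 4 or more) among the other p53 targets, the p53 regulators and the integrated stress genes, in each comparison of whole epithelial libraries. Trp53, Mdm4 and Trp63 were named in any case.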

Additional observations from a re-analysis of the deposited data

Results flagged for a closer look

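Tests of the interaction picked out 6 values, each a step between gated classes that differed between groups. For colonocyte- against cycling-gated cells, the step in assembloids minus that in tissue was -1.45 for Cdkn1a, -0.94 for Mdm2, -0.85 for Ccng1 and 0.81 for Trp53inp1 on the log2 scale. For cycling-gated against ungated cells, the step in organoids minus that in tissue was -1.16 for Trp53inp1 and -2.35 for Eda2r. Only the Cdkn1a value stayed below an adjusted p of 0.05 in edgeR in each fit that left out 1 library.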

How the results depend on the processing

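The alternatives were followed for each member tested between epithelial groups, and for Cdkn1a and the called members in comparisons of classes, in the differences between class steps and in stroma. Of these 1095 values 992 counted as kept, with the same direction and, where there was a p, the same side of the threshold. A further 67 lost a call, 27 gained one, 8 reversed and 1 moved, and the cause was not tested. Stromal values with 1 library left out have no p and counted as kept within 1 SE of the main value. In non-cycling cells the stricter gate holds the same cells as the main one, so those values could not change. Replicate numbers were not used to pair the epithelial libraries, since the study states no pairing of them. The correlation of deviations was 0.22 for assembloids with organoids, 0.27 for assembloids with tissue and -0.20 for organoids with tissue. With 2 libraries a group these values cannot tell whether libraries of the same number are paired. With a replicate block 9468, 8904 and 10070 genes were called between the whole epithelial groups, against 9598, 9060 and 10235 without it, and the number of members called was 7, 7 and 8 as before. Over gates, the replicate block changed the calls of Sesn2 and Trp53inp1 given above and no other member's.

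With no replicate block, that is without the library as a block in class contrasts, the genes called fell from 3307 to 180 for cycling-gated against ungated cells, from 8885 to 4587 for colonocyte- against cycling-gated, from 6526 to 1482 for colonocyte- against goblet-gated, from 2953 to 538 and from 1319 to 37 for the differences of assembloids and organoids from tissue in the class steps, from 3229 to 1173 for cycling fibroblasts and from 662 to 401 for telocyte-gated fibroblasts. Members called were then 1 for colonocyte- against goblet-gated cells, 0 for both differences and 1 for telocyte-gated fibroblasts. DESeq2 called 1961 genes for cycling fibroblasts, 4 members for the organoid difference and 0 for telocyte-gated fibroblasts. With no filter on low counts 1067 genes and 4 members were called for telocyte-gated fibroblasts, 2 members each for cycling fibroblasts and glia-gated cells, and 1 for cycling-gated against ungated cells. With a stricter gate 4472 genes were called in colonocyte-gated cells against 6779, 1 member for cycling-gated against ungated cells and 3 for glia-gated cells, while telocyte-gated fibroblasts were down to 1 and 3 cells and gave no value.

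Values that reversed under the stricter gate were uncalled in both fits: Eda2r in cycling-gated assembloids against tissue (0.077), Zmat3 in colonocyte-gated cells (-0.34), and Cdkn1a in the organoid difference (0.39), in cycling fibroblasts (0.072) and in glia-gated cells (-0.38). Leaving out 1 library each moved uncalled Eda2r from -0.77 to 0.29 in cycling-gated assembloids and from -0.44 to 0.046 in cycling-gated organoids, and Mdm4 between organoids and assembloids from -0.11 to 0.36.

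The number of genes called, with 1 library left out each time, was 5372 to 10300 for assembloids against tissue and 5203 to 9703 for organoids against tissue. It was 2957 to 7031 and 2153 to 6084 in cycling-gated cells, 4583 to 9120 and 4281 to 7940 in non-cycling cells, 4217 to 6812 in colonocyte-gated cells, 2174 to 2859 for cycling-gated against ungated cells, and 1209 to 3352 and 120 to 2053 for the 2 differences. The lowest value was without tissue replicate 1 throughout, except for cycling-gated against ungated cells (without assembloid replicate 2). Members called were 5 to 9 in non-cycling assembloid cells against tissue, 0 to 1 for cycling-gated against ungated cells, and 1 to 4 and 0 to 3 for the differences. Leaving out a stromal library leaves no error, so those are values without a test. Without thinning, a mean of 68.7% of assembloid epithelial cells had a Cdkn1a UMI, against 40.9% after it. Depth limits the rarer members in small classes, down to 1 UMI of Sesn2 in each glia-gated sum. In the 90 cycling-gated cells of tissue replicate 2, Eda2r rests on 11 UMIs and Phlda3 on 9.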
